A study of Mus musculus with 4 samples.

Results

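The genes described here are 10 members of the endothelial bone morphogenetic protein (BMP) pathway, taken by symbol: the receptors Acvrl1 (ALK1), Eng (endoglin) and Bmpr2, the ligands Bmp4 and Bmp6, the inhibitory SMADs Smad6 and Smad7, and the ID genes Id1, Id2 and Id3. All 10 were found among the 23997 genes of the expression table. RNA was sequenced from cultured lung endothelial cells of C57BL/6 mice, grown in medium with 10% serum, a source of BMPs that all conditions share. The 4 conditions were control siRNA, control siRNA + DEX, GR siRNA and GR siRNA + DEX, where DEX is dexamethasone, a synthetic glucocorticoid, and values listed below without a condition follow this order. The siRNA treatment lasted 48 h, and DEX was given at 100 nM for 18 h. GR siRNA targets Nr3c1, the gene of the glucocorticoid receptor, a transcription factor activated by steroid hormones. The table holds 1 column of FPKM (fragments scaled to transcript length and library size, so that genes can be compared per length) per condition, although the design text describes 3 replicates; the sources used here do not say whether a column is 1 replicate or a summary. No difference below therefore has a replicate check, an error or a p-value.

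ALK1 is a type I receptor kinase found mainly on endothelial cells. Circulating BMP9 and BMP10 bind it with high affinity, together with the type II receptor BMPR2, and endoglin is the co-receptor that presents these ligands. The receptor complex phosphorylates SMAD1 and SMAD5, which enter the nucleus with SMAD4 and switch on a small set of rapid targets, above all Id1, Id2 and Id3, whose products bind bHLH transcription factors and keep them off DNA. SMAD6 and SMAD7 are also induced and feed back to restrain the receptors. Inherited loss of endoglin or ALK1 causes hereditary haemorrhagic telangiectasia, and loss of BMPR2 causes heritable pulmonary arterial hypertension.

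Sequence 5′ of the start site is shown for Smad6, which on the log2(FPKM + 1) scale had the largest difference of the 10 genes between the siRNA arms with DEX (with a pseudocount of 0.1 it was Bmp6), and for Eng, which had one of the smallest. Both are 250 bases from the RefSeq promoter table (build GRCm38.p6), ending at the base before the transcription start. The Smad6 region is chr9:64022060-64022309, minus strand, and the Eng region is chr2:32646345-32646594, plus strand. Neither contains a GENCODE exon. Capitals mark a glucocorticoid receptor half-site, TGTTCT on either strand (AGAACA on the other).
Smad6: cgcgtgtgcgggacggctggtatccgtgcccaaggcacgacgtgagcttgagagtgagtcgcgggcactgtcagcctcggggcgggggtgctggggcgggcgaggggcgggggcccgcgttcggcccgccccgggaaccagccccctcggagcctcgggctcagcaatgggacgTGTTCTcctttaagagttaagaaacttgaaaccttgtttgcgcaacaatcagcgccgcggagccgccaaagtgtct
Eng: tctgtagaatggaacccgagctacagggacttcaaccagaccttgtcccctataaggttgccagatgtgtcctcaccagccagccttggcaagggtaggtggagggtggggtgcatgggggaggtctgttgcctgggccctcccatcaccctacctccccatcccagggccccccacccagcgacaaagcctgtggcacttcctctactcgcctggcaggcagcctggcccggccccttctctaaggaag

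Of the 10 genes, 7 had an entry in the promoter table; Acvrl1, Smad7 and Id1 did not. Within 250 bases before the start, the half-site was found in Smad6 and Bmpr2, and it occurs in 16.1% of all 32851 promoters. The motif GGCGCC, which SMAD1 and SMAD5 can bind and which reads the same on both strands, was found in Id2 and Bmpr2 and occurs in 9.59% of all promoters. The palindromic SMAD element GTCTAGAC was in none of the 7 within these 250 bases. Over 300 bases, which add the first 50 transcribed bases, it was found in Smad6, across the start site, and in 0.213% of all promoters. None of the 7 held a full palindromic GR element in either window. Only 0.00913% of all promoters did, so its absence from so few promoters says little. The 30 bases around the matches in Id2 (chr12:25096306-25096335, minus strand) and Bmpr2 (chr1:59764162-59764191 and chr1:59764208-59764237, plus strand) are shown with the motif in capitals. Both Bmpr2 stretches lie in an exon of a longer GENCODE transcript of Bmpr2, and the Id2 stretch lies in no GENCODE exon. A match describes letters only.
Id2, GGCGCC: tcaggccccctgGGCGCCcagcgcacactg
Bmpr2, GGCGCC: ctccggcggccgGGCGCCgctgcctgcccc
Bmpr2, TGTTCT: cggtcgggaactTGTTCTgatcctcagtgc

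Nr3c1 followed the siRNA labels, at 14.4, 14.3, 5.45 and 5.32 FPKM in the 4 conditions. Well-known GR-induced genes separated the siRNA arms but hardly the DEX columns: Fkbp5 was 92.2, 94.9, 55.9 and 54.1 FPKM, Tsc22d3 was 50.7, 57.9, 24.5 and 26.2 FPKM and Per1 was 15.1, 16.5, 7.91 and 7.99 FPKM. None of these check genes differed by 0.32 on the log2 scale between DEX and no DEX in either arm, so they do not check the DEX labels. All 10 endothelial markers reached 1 FPKM, with a summed level of 2539 and 2542 FPKM with control siRNA and 2282 and 2222 FPKM with GR siRNA. Of 11 fibroblast and mural markers 3 reached 1 FPKM, and their summed level was 8.22 and 7.89 FPKM against 14.6 and 12.999 FPKM; Rgs5 was at 0. Of 4 lymphatic markers Lyve1 and Flt4 did, with Prox1 between 0.12 and 0.18 FPKM; the list summed to 401 and 375 FPKM against 211 and 210 FPKM. The leukocyte markers Ptprc and Cd3e were listed at 0, Cd68 was between 161 and 218 FPKM and took nearly all of that list's sum (177, 161, 194 and 219 FPKM), and lung epithelial markers summed to between 0.789 and 1.22 FPKM. The part of these shifts in the results below was not tested, and in bulk RNA fewer cells of a type and less RNA per cell cannot be told apart. Relative sequencing depth, read from the values of genes under 0.1 FPKM, was 0.671, 0.962, 1 and 0.811 in the order of conditions above; the absolute depth is unknown.

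The receptor mRNAs Acvrl1 and Eng were abundant and nearly level across the 4 conditions. Acvrl1 (chromosome 15, 101128522 to 101145336, plus strand) stood at 221, 228, 227 and 220 FPKM in the order control siRNA, control siRNA + DEX, GR siRNA and GR siRNA + DEX. Eng (chromosome 2, 32646595 to 32682669, plus strand) stood at 148, 154, 150 and 148 FPKM in the same order. The siRNA arms overlapped for both receptors. The ratio of Eng to Acvrl1 within a column, which no rescaling of columns can alter, was 0.671, 0.677, 0.664 and 0.671. Bmpr2 (chromosome 1, 59763400 to 59879014, plus strand), the type II receptor, was much less abundant, at 12.02 and 11.8 FPKM in the control siRNA arm (without and with DEX) and 10.2 and 9.99 FPKM in the GR siRNA arm. Both GR siRNA columns lay below both control columns for Bmpr2, by 15.0% without DEX and 15.6% with DEX. How many of all genes were separated in this way, here and for the genes below, was not counted.

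Both ligands of the set were scarce, between 0.752 and 1.502 FPKM. Bmp4 (chromosome 14, 46383520 to 46390669, minus strand), a ligand made by many cell types, was 1.08, 0.802, 1.502 and 1.09 FPKM. Bmp4 was the member that was higher with GR siRNA in both DEX states, and the columns with DEX were the lower ones in both arms. Bmp6 (chromosome 13, 38345107 to 38500302, plus strand), the liver endothelial signal that sets hepcidin production, was 1.40, 1.48, 0.926 and 0.752 FPKM in that order. Both GR siRNA columns of Bmp6 lay under both control columns. At this abundance a difference rests on few fragments, and 5.20% of the 31-base words of Bmp6 transcripts are shared with other genes, mostly Txndc5 on the opposite strand, which stood at 59.3, 58.7, 66.2 and 67.0 FPKM; without a stated strand setting, reads of these overlapping genes cannot be told apart.

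The inhibitory SMADs were lower with GR siRNA, Smad6 more than Smad7. Smad6 (chromosome 9, 63953076 to 64022059, minus strand), which blocks BMP receptor signalling in endothelium, stood at 102, 114, 82.5 and 77.4 FPKM in the 4 conditions. Both GR siRNA columns lay below both control siRNA columns, by 19.4% without DEX and 32.1% with DEX. Smad7 (chromosome 18, 75367529 to 75395935, plus strand), which restrains both BMP and TGF-beta receptors, stood at 33.0, 34.1, 31.6 and 25.9 FPKM. For Smad7 the column with both GR siRNA and DEX was set apart, 24.0% below its control, while without DEX the distance was 4.22%.

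Id1 and Id3 were among the most abundant mRNAs in these cells, Id2 was less abundant, and all 3 were lower with GR siRNA. Id1 (chromosome 2, 152736251 to 152737410, plus strand) ranked 142nd of 11445 genes with control siRNA and Id3 (chromosome 4, 136143497 to 136145755, plus strand) ranked 174th, while Id2 ranked 703rd, below Acvrl1 (405th) and Eng (625th). Id1 stood at 558, 579, 492 and 451 FPKM in the 4 conditions. Id3 stood at 451, 471, 417 and 382 FPKM, the same order of columns as Id1. Id2 (chromosome 12, 25093799 to 25097140, minus strand) followed another order, with 133 and 135 FPKM in the control columns and 101 and 103 FPKM in the GR siRNA columns, so that DEX hardly separated the columns within an arm. The distance between arms was 11.9%, 24.2% and 7.41% for Id1, Id2 and Id3 without DEX, and 22.1%, 23.4% and 18.8% with DEX. Summed, the 3 genes made 1142, 1184, 1010 and 936 FPKM, and Id1 made 48.2 to 48.9% of that sum in every column. The fourth family member, Id4, was below 0.1 FPKM in every column.

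**Figure D1:**
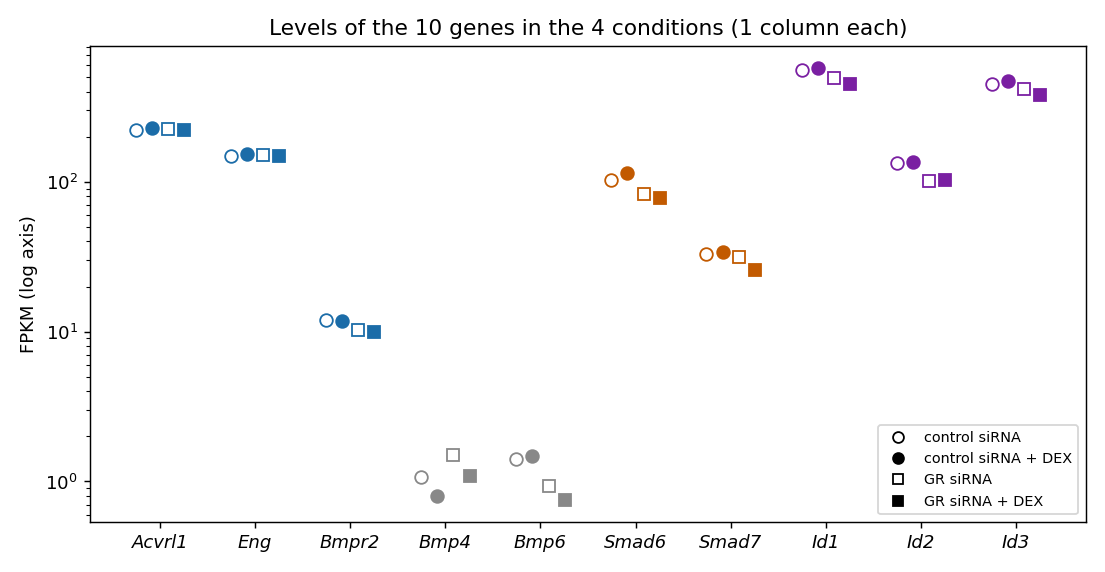
Deposited FPKM (log axis) of the 10 genes, 1 symbol for each of the 4 conditions (circles for the control siRNA arm, squares for the GR siRNA arm, filled where DEX was given); blue marks receptors, grey ligands, orange inhibitory SMADs and purple ID genes. Squares lie below circles for Bmpr2, Bmp6, Smad6, Smad7, Id1, Id2 and Id3, whereas the 4 symbols of Acvrl1 (220 to 228 FPKM) and of Eng (148 to 154 FPKM) are almost level. The share of all genes separated in this way was not counted. By the looser measure of being lower with GR siRNA within each DEX state, it was 41.2%.

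By level per transcript length, the order in the control siRNA column was Id1, Id3, Acvrl1, Eng, Id2, Smad6, Smad7, Bmpr2, Bmp6 and Bmp4. In the GR siRNA column the positions of Bmp6 and Bmp4 were exchanged and the other 8 kept theirs. With 1 column per condition, whether neighbours in this order differ beyond their spread cannot be told.

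Setting the GR siRNA arm against the control arm asks how BMP pathway mRNAs stand when GR mRNA is reduced. On the log2(FPKM + 1) scale, which understates differences of scarce genes, no member was at least 1.5-fold lower or higher in either DEX state. Among all genes of at least 1 FPKM in a column compared, 2.54% were at least 1.5-fold lower and 2.36% at least 1.5-fold higher without DEX, and 2.62% and 2.36% with DEX. At a lower limit, a log2 difference of at least 0.32 in size, Id2 (log2 difference −0.40) was the 1 member of 10 that was lower without DEX, where 8.86% of all genes were lower. With DEX in both arms 5 of 10 were lower, Smad6 (−0.55), Bmp6 (−0.50), Smad7 (−0.38), Id2 (−0.38) and Id1 (−0.36), against 8.69% of all genes. Bmp6 reached 1 FPKM in the control siRNA arm alone, so that it could enter this count in 1 direction only; without it 4 of 9 were lower. No member was higher by 0.32 or more, against 7.7% of all genes without DEX and 7.78% with DEX. These counts depend on the pseudocount for the scarce ligands: at 0.1, Bmp4 was 0.45 higher without DEX and 0.41 higher with DEX, and Bmp6 was at −0.55 without DEX and past 1.5-fold with DEX. In the same comparison with DEX, 3 of 10 endothelial markers were also lower by at least 0.32: Cldn5, Egfl7 and Vwf.

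Medians of differences of any size set the inhibitory SMAD and ID genes below the receptors, but single genes were not fully separated by role. The 5 inhibitory SMAD and ID genes were all lower in both states, with a median difference of −0.18 without DEX and −0.38 with DEX. The 3 receptors had medians of 0.02 and −0.06, and all genes tested had medians of −0.01 and −0.01. Of the receptors, Bmpr2 was at −0.21 and −0.22. Without DEX that was below Id1 (−0.18), Id3 (−0.11) and Smad7 (−0.06) and above Smad6 (−0.31) and Id2 (−0.40). With DEX it was above all 5. Over the 10 genes the median was −0.15 without DEX and −0.33 with DEX. With DEX, 2.94% of all genes were as low as or lower than Smad6, 6.35% as low as Smad7 and 6.43% as low as Id2. For Id1 and Id3 the shares were 7.11% and 9.88%. Without DEX they were 9.51% (Smad6), 40.3% (Smad7), 5.85% (Id2), 20.5% (Id1) and 30.6% (Id3). Genes lower in both states made 41.2% of all genes, and 7 of the 10 members were lower in both: Bmpr2, Bmp6, Smad6, Smad7, Id1, Id2 and Id3. Id2 was the member lower by at least 0.32 in both, as were 5.73% of all genes.

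**Figure D2:**
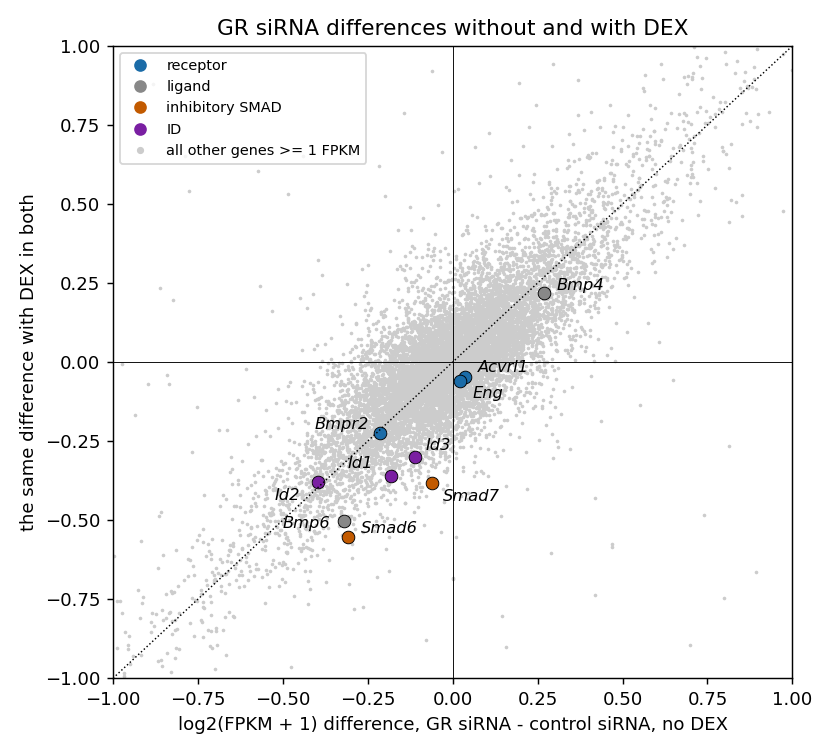
Difference in log2(FPKM + 1) between GR siRNA and control siRNA for each gene of at least 1 FPKM in any column, without DEX on the horizontal axis and with DEX on the vertical axis; coloured points are the 10 genes and the dotted line marks equal differences. Smad6, Smad7, Bmp6, Id1 and Id3 lie in the lower left and below the dotted line, Id2 and Bmpr2 lie close to it, and 228 of the 11445 genes fall outside the axes.

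Within a column, the ID genes and inhibitory SMADs stood lower relative to Acvrl1. Acvrl1 was nearly level, so these ratios largely restate the differences above. The ratio of Id1 to Acvrl1 was 2.53 and 2.54 in the control siRNA arm, without and with DEX, against 2.17 and 2.05 in the GR siRNA arm. The ratio of Id3 to Acvrl1 was 2.04 and 2.07 against 1.84 and 1.73. The ratio of Smad6 to Acvrl1 was 0.464 and 0.500 against 0.364 and 0.351. For these 3 genes both GR siRNA columns lay below both control columns. Id2 to Acvrl1 was 0.604 and 0.591 against 0.446 and 0.468. Smad7 to Acvrl1 was 0.149 and 0.150 against 0.139 and 0.117, so that most of its distance was in the column with DEX. Bmpr2, the other receptor of the complex, was itself lower relative to Acvrl1, at 0.0545 and 0.0520 against 0.0451 and 0.0453. The ratios to Acvrl1 therefore do not stand for ratios to Bmpr2, which were not taken. These ratios use the 4 columns once each and have no error.

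**Figure D3:**
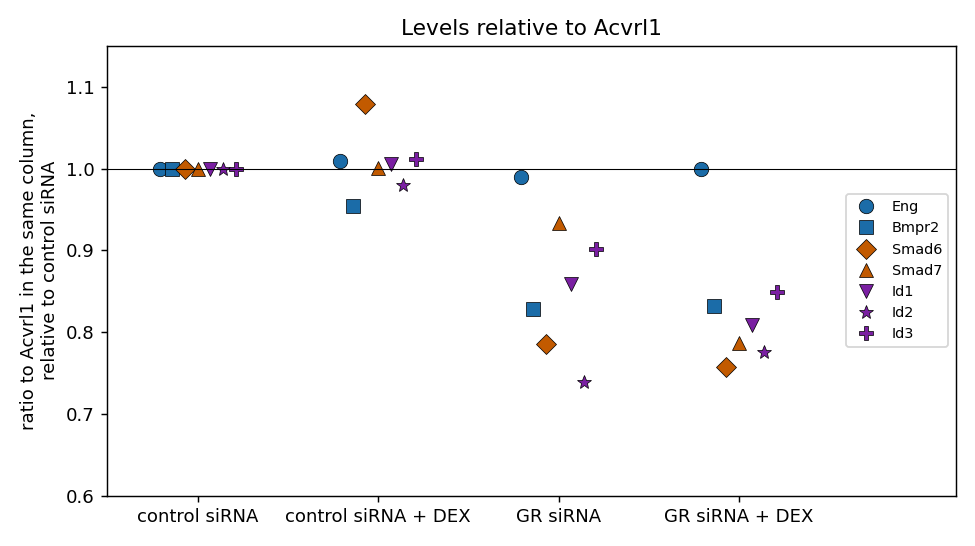
Ratio of each gene to Acvrl1 in the same column, divided by that ratio in the control siRNA column, which is 1 by construction; the vertical axis starts at 0.6. Eng stays near 1 in all columns, and in the GR siRNA columns Bmpr2, Smad6, Smad7, Id1, Id2 and Id3 lie below 1. Of these, Smad6, Smad7, Id1 and Id3 are lower in the column with DEX than in the one without, and Id2 and Bmpr2 are not.

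The comparison of DEX with no DEX asks what an 18 h glucocorticoid exposure does in cells with and without GR siRNA. In control siRNA cells all differences were small. No member was 1.5-fold apart in either direction, where 1.08% of all genes were, and none was apart by 0.32 on the log2 scale, where 1.91% were; with a pseudocount of 0.1, Bmp4 passed that limit at −0.38. Smad6 was highest among the members, at 0.15 on the log2 scale (102 against 114 FPKM), and 4.53% of all genes were as high. Bmp4 was lowest, at −0.20, and 1.99% of all genes were as low. All 5 inhibitory SMAD and ID genes were slightly higher with DEX, with a median of 0.05, beside a median of −0.01 for all genes. Of the 11227 genes tested, 5321 were higher with DEX. The share of all genes as high was 39.1% for Id2, 24.7% for Smad7, 22.2% for Id1 and 19.0% for Id3.

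In GR siRNA cells 4 of the 5 inhibitory SMAD and ID genes, all but Id2, stood on the other side of 0. This was not particular to them: Acvrl1 (0.05 and −0.04), Eng (0.06 and −0.03) and Bmp6 (0.05 and −0.14) changed side too. The share of all genes that changed side was not counted. Differences near 0 were common, with all-gene quartiles of −0.05 and 0.04 in control siRNA cells and −0.07 and 0.06 in GR siRNA cells. Bmpr2 and Bmp4 were below 0 in both arms. Again no member was 1.5-fold apart, against 1.18% of all genes, or apart by 0.32, against 2.23%, although with a pseudocount of 0.1 Bmp4 was at −0.42; Bmp6 was below 1 FPKM in both columns and stayed out of this count. Smad7 was lowest at −0.28 (31.6 against 25.9 FPKM), and 1.26% of all genes were as low. Id1, Id3 and Smad6 were at −0.12, −0.13 and −0.09, and Id2 was at 0.03. The difference between the DEX differences of the 2 arms, GR siRNA minus control siRNA, was −0.32 for Smad7, −0.24 for Smad6, −0.19 for Id3, −0.18 for Id1 and 0.02 for Id2. It was as low or lower in 1.97% of all genes for Smad7, 3.91% for Smad6, 7.26% for Id3 and 8.34% for Id1. This quantity equals the gap between the GR siRNA differences with and without DEX, so it adds no separate evidence, and it was not tested. In the receptors it was −0.08 for Acvrl1 and Eng and −0.01 for Bmpr2.

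**Figure D4:**
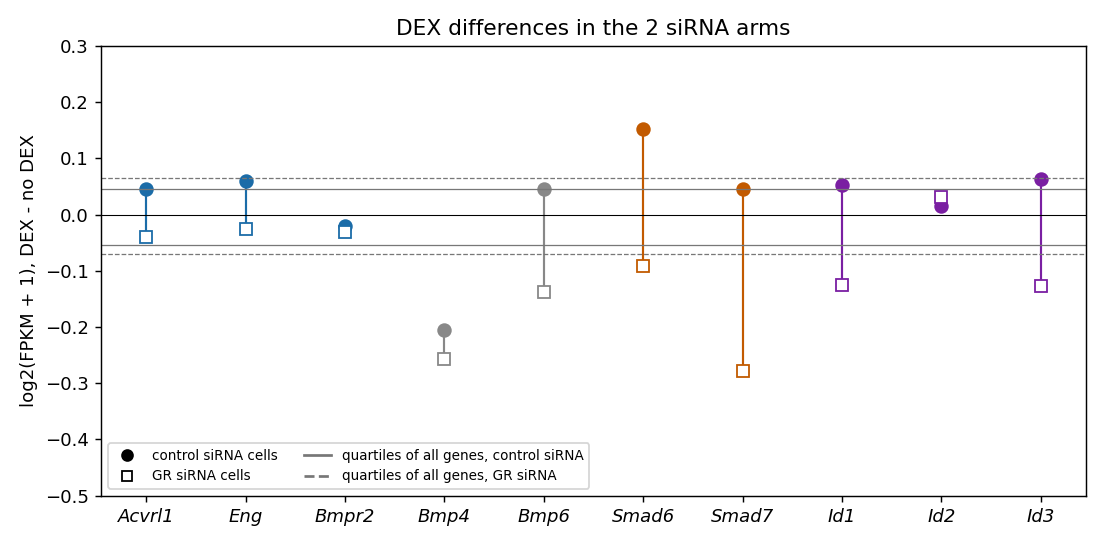
Difference in log2(FPKM + 1) between DEX and no DEX for each of the 10 genes, in control siRNA cells (filled circles) and GR siRNA cells (open squares), with grey lines at the quartiles of all genes tested in each arm. Circles of Smad6, Smad7, Id1, Id3, Acvrl1, Eng and Bmp6 lie above 0 and their squares below, with Smad7 at −0.28 and Smad6 at −0.09 in GR siRNA cells. The 2 symbols of Id2 and of Bmpr2 nearly coincide.

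Among the SMADs that carry the signal, Smad1 differed and its close relatives did not stand apart. Smad1, which is phosphorylated by ALK1, was 46.6, 45.2, 29.1 and 25.7 FPKM in the 4 conditions. The log2 differences with GR siRNA were −0.66 without DEX and −0.79 with DEX, further from 0 than those of the 10 genes on the same scale; with a pseudocount of 0.1, Bmp6 was lower with DEX, at −0.89. Smad5, which shares the role of Smad1, was 22.6, 22.0, 24.1 and 22.8 FPKM in the same order. Smad1 made 66.7% and 66.6% of the summed Smad1, Smad5 and Smad9 level in the control columns and 54.1% and 52.3% in the GR siRNA columns. Smad9 was between 0.584 and 0.642 FPKM, and the common partner Smad4 was between 20.9 and 22.2 FPKM. Of 5 signal-transducing SMADs that reached 1 FPKM, Smad1 was the 1 with a difference of at least 0.32 in size in each DEX state; among all genes 5.73% were lower and 4.98% higher by that much in both states.

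Other receptors and ligands differed in both directions. Of 15 further receptors and co-receptors, 11 reached 1 FPKM without DEX, with a median difference of 0.04; with DEX 10 did, with a median of −0.07. Neo1, the neogenin receptor that also binds the RGM co-receptors of BMPs, was 62.6 and 59.6 FPKM with control siRNA and 87.3 and 90.2 FPKM with GR siRNA. Tgfbr2, the TGF-beta type II receptor, was 77.9 and 73.6 FPKM against 94.0 and 89.2 FPKM. Rgma was 0.654 and 0.602 FPKM against 1.37 and 1.18 FPKM, and Bambi, a decoy receptor, was 2.21 and 2.27 FPKM against 1.58 and 1.73 FPKM. The type I receptor Acvr1 stayed between 8.32 and 8.72 FPKM, and Bmpr1a was at or below 0.0172 FPKM. For the circulating ALK1 ligands, Gdf2, which encodes BMP9, was listed at 0 in every column and Bmp10 was at or below 0.0163 FPKM. Of 14 further ligands 2 reached 1 FPKM. Inhbb, a subunit of activin and inhibin, was 25.6 and 26.7 FPKM against 14.9 and 14.8 FPKM, and Gdf15 was 13.6 and 14.2 FPKM against 17.4 and 18.3 FPKM. Bmp2 was between 0.147 and 0.519 FPKM.

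Extracellular antagonists and intracellular regulators had medians near 0. Of 18 antagonists and binding proteins, 8 reached 1 FPKM, with medians of −0.04 without DEX and −0.01 with DEX. Nbl1, a secreted BMP antagonist, was 5.55 and 4.93 FPKM with control siRNA and 3.21 and 2.81 FPKM with GR siRNA, and Twsg1, which binds BMPs together with chordin, was 20.6 and 19.8 FPKM against 15.96 and 16.4 FPKM. The protease gene Htra1 was 0.681 and 0.891 FPKM against 2.40 and 2.24 FPKM, and Chrd, the chordin gene, was 2.83 and 3.06 FPKM against 3.57 and 3.77 FPKM. Of 8 ubiquitin ligases and nuclear repressors of SMADs the medians were 0.03 and 0.08. Smurf2, a ligase for SMADs, was 32.1 and 32.9 FPKM against 25.9 and 26.85 FPKM, and Stub1 was 78.9 and 82.3 FPKM against 63.1 and 64.1 FPKM. Nedd4l was 2.06 and 2.08 FPKM against 2.996 and 3.03 FPKM, and Skil, a SMAD co-repressor, was 16.01 and 15.8 FPKM against 20.3 and 18.8 FPKM.

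Other genes known to respond to BMP9 and ALK1 in endothelium did not share 1 direction with the ID genes. Of 11 such targets, 9 reached 1 FPKM, with medians of −0.06 and −0.06. Atoh8, a bHLH factor, was 17.7 and 19.5 FPKM with control siRNA and 9.42 and 9.86 FPKM with GR siRNA, and Hey1 was 5.02 and 4.88 FPKM against 4.12 and 3.76 FPKM. The connexin genes Gja4 and Gja5 went the other way, at 7.64 and 7.95 FPKM against 18.5 and 17.8 FPKM, and at 10.8 and 11.5 FPKM against 15.2 and 16.1 FPKM. Tmem100 was below 1 FPKM throughout. Of 6 genes known to be lowered by this signalling 3 reached 1 FPKM: Lyve1, which is also a lymphatic marker, was 373 and 348 FPKM against 191 and 192 FPKM, Angpt2, an antagonist of TIE2, was 3.50 and 2.84 FPKM against 4.70 and 5.33 FPKM, and Apln was 42.6 and 33.9 FPKM against 44.9 and 38.4 FPKM.

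Among the bHLH factors on which ID proteins act, Tcf4 and Lyl1 were lower with GR siRNA together with the ID genes. Tcf4, an E protein that ID proteins sequester, was 44.1 and 42.4 FPKM with control siRNA and 31.2 and 28.5 FPKM with GR siRNA, and Lyl1, a partner of E proteins, was 22.0 and 22.5 FPKM against 15.8 and 15.3 FPKM. Tal1 was 22.35 and 23.0 FPKM against 20.6 and 19.8 FPKM, and the E protein Tcf12 was 29.6 and 28.7 FPKM against 32.5 and 31.6 FPKM. Of 5 factors that reached 1 FPKM, Tcf4 and Lyl1 were the 2 with a difference of at least 0.32 in size in each DEX state, beside the 5.73% of all genes that were lower in both, and the medians were −0.12 and −0.21.

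**Figure D5:**
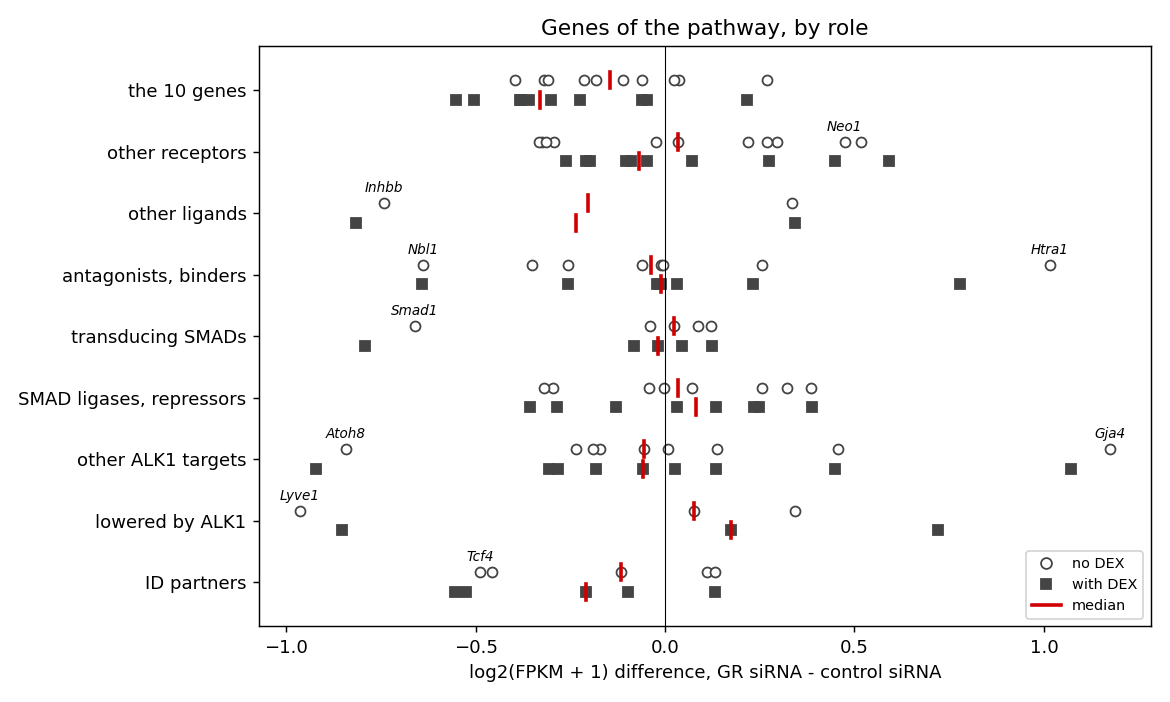
Difference in log2(FPKM + 1) between GR siRNA and control siRNA for every gene of at least 1 FPKM in the 10 genes and in 8 further lists of the pathway, without DEX (open circles) and with DEX (filled squares), with red bars at the list medians. The 10 genes have medians of −0.15 and −0.33, the other lists scatter on both sides of 0, and the ends are held by Lyve1, Atoh8 and Inhbb on the left and Gja4 and Htra1 on the right.

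The genes whose 4-column profile was most like that of Id1, by the smallest largest deviation of the centred log2(FPKM + 1) values among 8505 other genes of at least 5 FPKM in every column, were Mknk2, Calm3 and Tgm2. Their largest deviations were 0.0056, 0.0056 and 0.013. For Eng they were Pabpn1, Glul and Adrm1, at 0.0070, 0.0079 and 0.0083. With 4 columns many genes share such a profile, and the likeness is a description only.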

How the data were processed

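RNA sequencing of total RNA gave 1 table for 4 samples, 1 per condition, each mapped to its column by name. The authors deposited FPKM per gene; TopHat2, which aligns spliced reads, and Cuffdiff, which computes FPKM, are named with the mm10 genome, per the submitters' processing notes. The sources used here do not give their versions, the annotation, the strand setting or how replicates were combined. Read counts cannot be had from FPKM.

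Differences were taken on log2(FPKM + 1) in genes of at least 1 FPKM in 1 or more of the columns compared, and counted at 1.5-fold and at a log2 difference of 0.32; no test was run, since no condition has replicate columns and a fit over both DEX states would have to take their interaction as error. Counting at 1.5-fold was tested on simulated data with larger changes set in genes of at least 5 FPKM. It checks the counting code and does not cover the limit of 0.32 or genes near 1 FPKM. Alternatives were a pseudocount of 0.1, other filters and folds, and 2 rescalings. The 10 members, the 8 pathway lists (84 symbols) and the marker lists were chosen with earlier results of these data known. Genes named are the 10 members, up to 4 per list with the largest mean absolute GR siRNA difference, genes singled out by their role in the ALK1 pathway, label checks, markers and the 3 nearest profiles of Id1 and Eng; Txndc5, an overlapping gene, was named after its values were seen. Gene coordinates are from GENCODE M21 (mm10, 1-based) and promoters from RefSeq. Acvrl1, Eng and Bmp4 also overlap exons of opposite-strand genes, with 0.751 to 3.55% of their 31-base words shared. Python 3.11.15, pandas 2.3.3 and matplotlib 3.10.9 were used.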

Additional observations from a re-analysis of the deposited data

How the results depend on the processing

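No paired analysis was possible because each condition has 1 column and all 4 carry the same replicate number; the GR siRNA differences are given within each DEX state instead. Leaving out a replicate was not possible for the same reason. No member's difference changed sign under either rescaling, but the column factors were between 0.985 and 1.019, so only differences near 0 could have done so. A change of pseudocount cannot change a sign. Of 120 recomputed values, 7 moved by over 0.1 on the log2 scale, all of Bmp4 or Bmp6 with the pseudocount of 0.1. The cause is that scale, since both genes lie near 1 FPKM. With it, Bmp6 was at −0.89 with GR siRNA and DEX, so that 1 member passed 1.5-fold there. At a log2 difference of 0.32, 1 member passed with GR siRNA without DEX and 5 with DEX. Among all genes, 214 and 252 passed 0.32 for DEX in control and GR siRNA cells, and 1875 and 1869 for GR siRNA without and with DEX; at 2-fold the last comparisons had 170 and 153. With both a pseudocount of 0.1 and the 0.32 limit, chosen after seeing the data, 1, 1, 3 and 6 members and 337, 419, 2379 and 2360 of all genes passed, in the order DEX in control cells, DEX in GR siRNA cells, GR siRNA without DEX and with DEX; Bmp4 was among the members each time. The medians of the 10 genes moved by less than 0.1 under each alternative, and rescaling moved the median of all genes by less than 0.1. Of 160 list medians, 9 changed sign, each within the lists of other pathway genes. The absolute depth is unknown, so the counting error of Bmp4 and Bmp6 cannot be given.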
